A study of Homo sapiens with 8 samples.

Results

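The Schlafen gene cluster on human chromosome 17 was examined for binding of RFX7, a transcription factor of the RFX (regulatory factor X) family, in U2OS osteosarcoma cells. Its members were SLFN5, SLFN11, SLFN12, SLFN13, SLFN12L and SLFN14, 6 of the 20037 protein-coding genes that RefSeq places on the assembled chromosomes. They were chosen by name with earlier results of these data known, and a binding interval counted for the cluster when its midpoint lay inside a member or within 20 kb of either of its ends. One of the 304 intervals listed after Nutlin-3a met this rule and 0 of the 213 listed after DMSO did. The interval lay at the start of SLFN12 and was also within 20 kb of SLFN13. SLFN5, SLFN11, SLFN12L and SLFN14 had no interval in either list.

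The binding data came from chromatin immunoprecipitation followed by sequencing (ChIP-seq). Cells received either 10 µM Nutlin-3a or the solvent DMSO over 24 h, and 3 µg of RFX7 antibody went into each immunoprecipitation. Both treatments had 2 RFX7 samples and 2 input DNA samples, 8 samples in all, from 1 unmodified cell line. Nutlin-3a keeps MDM2 from binding p53, so that p53 accumulates, and p53 is wild type in U2OS cells. Each treatment was represented by 1 merged interval list, so no value below has a replicate error, the read depth behind the values is unknown, and no test between treatments was made.

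Schlafen proteins share a domain that cleaves RNA in several of them, and several are induced by interferon. SLFN11 sensitises cells to DNA-damaging drugs and blocks stressed replication forks, and it cleaves certain transfer RNAs, as SLFN13 also does. SLFN12 is an RNase that is stabilised when small molecules glue it to the phosphodiesterase PDE3A, which kills the cell. SLFN5 is an interferon-regulated nuclear protein that can act as a transcriptional corepressor. SLFN14 is a ribosome-associated endoribonuclease that is mutated in an inherited platelet disorder. RFX proteins recognise the X-box, an imperfect palindrome whose arms resemble GTTNCC, and RFX7 is known as a factor that works downstream of p53.

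The stretch of the SLFN12 promoter reached by the interval is shown first, beside the 2 other member promoters that had a RefSeq sequence (3 of 6 members matched). Each line runs 5′ to 3′ on the minus strand of GRCh38.p14, from 250 bases upstream of the annotated start to 30 bases into the transcript. In SLFN12 (chr17:35433145-35433424) capitals mark the 40 printed bases that lay inside the interval. In SLFN11 (chr17:35373592-35373871) and SLFN12L (chr17:35537649-35537928), which had no interval, capitals mark the reverse complement of the X-box arm GTTGCC.
SLFN12: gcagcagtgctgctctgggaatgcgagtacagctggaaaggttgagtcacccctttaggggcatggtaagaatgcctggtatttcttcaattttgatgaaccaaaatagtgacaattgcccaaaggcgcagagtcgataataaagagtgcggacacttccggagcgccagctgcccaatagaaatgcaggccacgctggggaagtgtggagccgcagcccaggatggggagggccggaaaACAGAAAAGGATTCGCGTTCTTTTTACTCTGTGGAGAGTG
SLFN11: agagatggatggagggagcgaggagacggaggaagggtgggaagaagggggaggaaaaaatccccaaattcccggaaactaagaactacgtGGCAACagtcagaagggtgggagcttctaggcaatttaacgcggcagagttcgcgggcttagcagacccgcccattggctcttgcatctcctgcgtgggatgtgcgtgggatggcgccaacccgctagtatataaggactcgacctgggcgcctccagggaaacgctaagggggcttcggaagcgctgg
SLFN12L: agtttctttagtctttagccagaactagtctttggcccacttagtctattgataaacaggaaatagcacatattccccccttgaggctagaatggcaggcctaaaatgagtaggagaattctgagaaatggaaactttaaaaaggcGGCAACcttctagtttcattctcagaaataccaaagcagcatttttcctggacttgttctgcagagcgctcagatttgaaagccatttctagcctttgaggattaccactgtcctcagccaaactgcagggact

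The SLFN12 interval spanned chromosome 17, 35432721 to 35433184 (build hg38), a width of 464 bp. SLFN12 (gene ID 55106) lies between 35410922 and 35433174 and is read towards lower coordinates, so its annotated start is at 35433174. The interval covered 10 bp upstream of that start and the first 454 bp of the gene, 97.8% of its width. Its midpoint was 222 bp from the start and inside SLFN12, where exons and introns were not assigned. The listed interval therefore lay mostly over the beginning of the annotated gene. Where within the interval RFX7 was bound was not determined. The near end of SLFN13 (gene ID 146857, 35435096 to 35449766) was 1911 bp beyond the interval's edge and 2144 bp from its midpoint. The gene table used here gives no strand for SLFN13, so whether this is its start or its other end was not assigned.

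**Figure D1:**
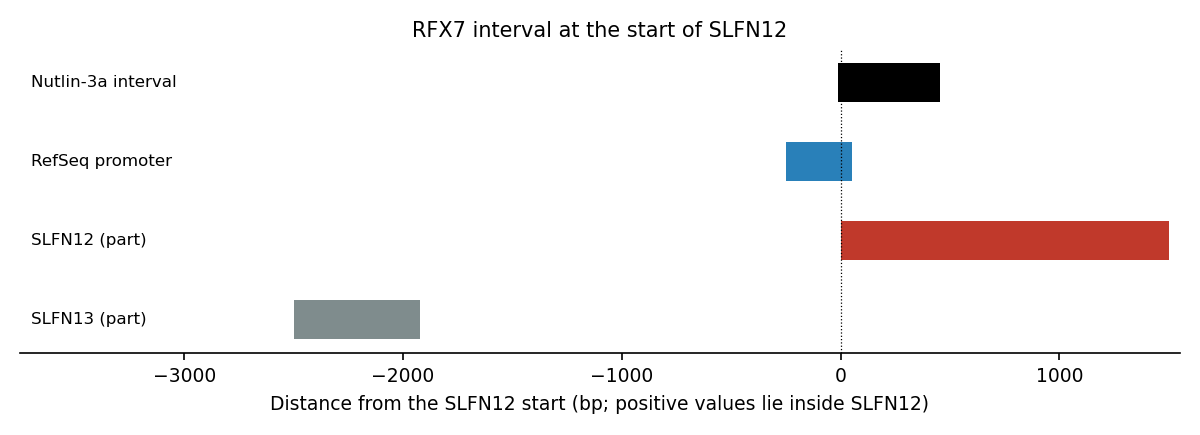
Bars show the Nutlin-3a interval, the RefSeq promoter window of SLFN12 and parts of SLFN12 and SLFN13 by distance in bp from the annotated start of SLFN12 (dotted line), positive inside SLFN12. The interval runs from 10 bp upstream of the start to 454 bp into the gene and does not reach SLFN13.

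The deposited values of the interval were 4.22 for fold enrichment and 7.74 for −log10 q. The list medians were 4.71 for fold enrichment and 10.2 for −log10 q, with maxima of 12.03 and 67.6, so the SLFN12 interval was in the weaker part of the Nutlin-3a list on both scales. By −log10 q it ranked 193 of 304, tied with 9 other intervals down to rank 202, and 63.2% of the list had a higher value. By fold enrichment it ranked 189, tied down to rank 197, and 61.8% of the list was higher. Its width stood in contrast to these ranks: 95 intervals were wider, and the median width was 339.5 bp. Among the 19 Nutlin-3a intervals on chromosome 17, 12 had a higher −log10 q and 12 a higher fold enrichment.

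**Figure D2:**
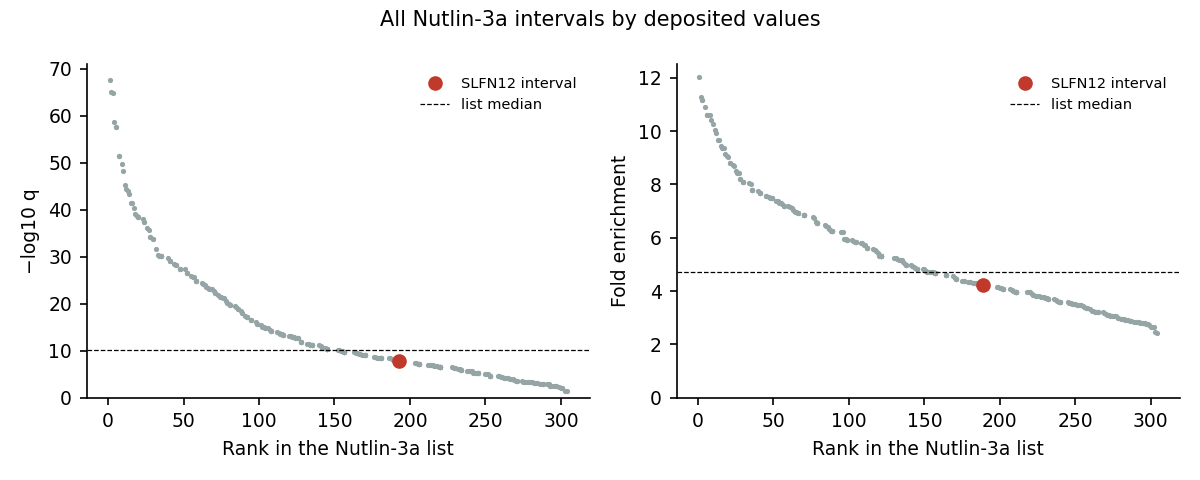
Points are the 304 Nutlin-3a intervals ordered by −log10 q (left) and by fold enrichment (right), with tied intervals at the same rank and the list median as a dashed line. The SLFN12 interval (red) is below the median in both panels, at rank 193 and rank 189.

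Many intervals of that list lay as close to a gene end as this one, and most of those had higher values. Of the 304 midpoints, 128 lay within 1 kb of an end of a protein-coding gene. Of these, 89 had a higher −log10 q than the SLFN12 interval, 89 had a higher fold enrichment and 64 were closer to the gene end. Genes published as RFX7 targets gave a further scale. All 13 such genes examined had a Nutlin-3a interval within 20 kb, and the strongest interval of each had a −log10 q between 11.2 (REV3L) and 51.4 (PIK3R3) and a fold enrichment between 4.99 and 10.4. The SLFN12 values were below all 13 of these. The 13 genes were chosen by name outside the planned gene lists, and where a gene had 2 intervals the stronger was used. That list comes from the study these samples belong to, so high values at its genes were favoured in advance. It is used only as a scale.

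Several intervals elsewhere in the genome carried the same fold enrichment and −log10 q as SLFN12. With SLFN12 there were 9, with widths from 160 to 475 bp, and 2 of them, SLFN12 and CCNG2, had a protein-coding gene end within 1 kb of the midpoint. CCNG2 encodes cyclin G2, an inhibitor of the cell cycle, and its interval of this value lay at chromosome 4, 77157263 to 77157594. This CCNG2 interval was a side interval, since the gene's strongest one had a −log10 q of 37.5. In all, 4 of the 9 lay within 1 kb of another Nutlin-3a interval, as did 77 of the 304 in the list. The SLFN12 interval had no such neighbour. The CCNG2 interval was singled out after its values were seen. The intervals ranked just above were nearest to TNRC18 (−log10 q 7.83, fold 3.53) and RHOBTB1 (7.75 and 3.97). Those just below the ties were nearest to R3HDM2 (7.49 and 4.04) and BRD1 (7.31 and 4.07). Nearest did not mean close: the midpoints lay 756, 27021, 26670 and 400521 bp from an end of these genes, in the order named. The SLFN12 interval had a higher fold enrichment than these 4 intervals.

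Each member was then taken in turn. SLFN12 and SLFN13 were the 2 of 6 members with a Nutlin-3a midpoint inside or within 20 kb, against 352 of all 20037 protein-coding genes, 1.76%. Because the members were chosen with this list known, that share is background only. Both counts rest on the same interval, since SLFN12 and SLFN13 are 1921 bp apart. Such sharing was common in the list: 105 of 304 Nutlin-3a intervals (34.5%) were within 20 kb of more than 1 protein-coding gene. When each midpoint was given only to the gene with the nearest end, SLFN12 alone kept it, 1 of 6 members against 0.928% of all protein-coding genes.

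The other members lay on both sides of the interval at increasing distance. Just outside the 20 kb limit was SLFN12L (35464254 to 35537678), the longest member at 73425 bp, whose near end was 31.3 kb from the midpoint. SLFN11 (35350305 to 35373621) was 59.3 kb away on the other side, SLFN14 (35543985 to 35560819) was 111 kb away, and SLFN5 (35243072 to 35273655) was 159 kb away. For all 6 members the SLFN12 interval was the nearest of the Nutlin-3a list. The cluster spans 317748 bp between its outer gene ends, and the next Nutlin-3a intervals on chromosome 17 were 6.42 Mb away towards lower coordinates and 13.1 Mb away towards higher ones. The SLFN12 interval was therefore the only listed site between them. The whole Nutlin-3a list held 304 intervals, 19 of them on chromosome 17. Whether gaps of this size are usual in so short a list was not tested.

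**Figure D3:**
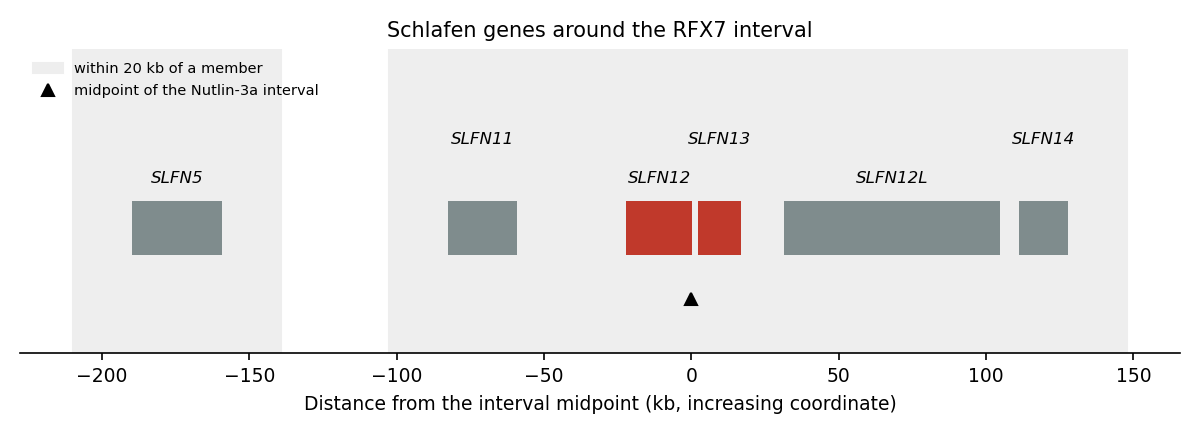
Bars show the 6 Schlafen genes by distance in kb from the midpoint of the Nutlin-3a interval (triangle), with regions within 20 kb of a member in grey. SLFN12 and SLFN13 (red) are within 20 kb of the midpoint, and SLFN12L is the next nearest at 31.3 kb.

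In the DMSO list 0 of 6 members had an interval within 20 kb, against 85 of 20037 protein-coding genes, 0.424%. That list held 2 intervals on chromosome 17, and the nearer one, at 52618670 to 52618832, was 17.2 Mb from SLFN12 and between 17.1 and 17.3 Mb from every member. The SLFN12 interval consequently overlapped no DMSO interval. An interval missing from a list shows only that no call passed the authors' threshold there. The DMSO list had fewer intervals, a lower median width (194 bp against 339.5 bp) and a lower median −log10 q (2.49 against 10.2). Of the 13 published RFX7 targets used above as a scale, 4 had a DMSO interval under the 20 kb rule, while all 13 had a Nutlin-3a interval. Absence from the DMSO list was thus shared by most of these targets and was not particular to SLFN12. Whether RFX7 signal at SLFN12 differed between treatments was not tested.

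**Figure D4:**
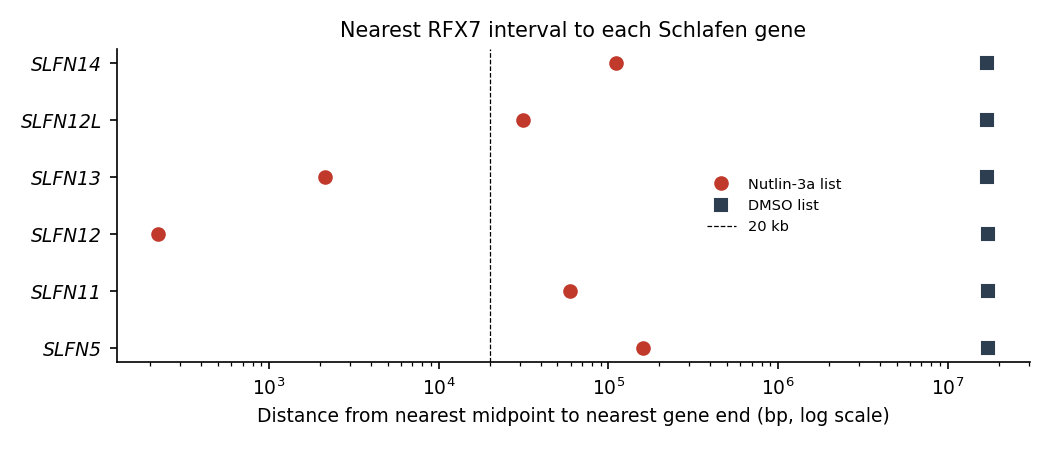
Points give, for each Schlafen gene, the distance in bp (log scale) from the nearer gene end to the nearest interval midpoint in the Nutlin-3a list (circles) and in the DMSO list (squares), with the 20 kb limit dashed. SLFN12 at 222 bp and SLFN13 at 2144 bp are left of the limit, and all DMSO distances exceed 17 Mb.

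Genes around and between the members had no interval of their own. RefSeq places 12 other protein-coding genes within 200 kb of the cluster's outer ends, among them AP2B1, a subunit of the clathrin adaptor, RAD51D, a DNA repair gene, and LOC105371932, which overlaps SLFN5. In both lists 0 of the 12 had a midpoint within 20 kb. The share of all protein-coding genes was 1.76% for the Nutlin-3a list and 0.424% for the DMSO list. A count of 0 among 12 genes is close to those shares and is not a trait of this region. A further 9 non-coding genes and pseudogenes lie between or over the members, and 0 of these were within 20 kb of a Nutlin-3a midpoint. Over all annotated genes that share was 1.11%.

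Letters of the X-box arm were found in the SLFN11 and SLFN12L promoter windows and not in that of SLFN12. In the full 300 bases of each, from 250 upstream to 50 into the transcript and on both strands, SLFN12 had 0 matches to GTTNCC, 0 to its stricter form GTTGCC and 0 to the palindrome centre CCATGG. SLFN11 had 3 matches to GTTNCC, 1 of which, beginning 159 bp upstream of the start, was also GTTGCC. SLFN12L had 2 matches to GTTNCC, and the one beginning 104 bp upstream was also GTTGCC. None of these 3 promoters held a pair of facing GTTNCC arms spaced by 0 to 3 bases. Of all 35116 RefSeq promoter windows, 45.4% held GTTNCC, 12.2% GTTGCC, 8.86% CCATGG and 0.74% such a facing pair, so a single GTTNCC arm is a common match.

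The SLFN12 window is a partial view of its interval. Only 60 of the interval's 464 bases fall in the promoter window, and the other 404 bases, further inside the gene, were not searched. Among 118 protein-coding promoter windows that overlapped a Nutlin-3a interval, the overlap had a median of 212.5 bases, and 15 had a shorter overlap than SLFN12. The 118 windows belong to 102 genes, so some genes are counted more than once in the shares below. Of those 118 windows 35 (29.7%) held GTTGCC, against 12.6% of all 22199 protein-coding windows, and 60 (50.8%) held GTTNCC, against 46.1%. SLFN12 was thus 1 of the 58 overlapped windows (49.2%) without a GTTNCC match.

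Genes that act with or upstream of Schlafens were counted last. Of 10 genes of interferon signalling, 1 had a Nutlin-3a midpoint within 20 kb and 0 had a DMSO midpoint, beside the backgrounds of 1.76% and 0.424%. It was IRF9, the DNA-binding subunit of an interferon-activated transcription complex, 19.6 kb from an interval at chromosome 14, 24141683 to 24141732, whose fold enrichment was 5.61 at a −log10 q of 5.01. That interval was 116 bp from an end of EMC9, a subunit of a membrane protein insertion complex, and so much nearer to another gene. STAT2 was the next, 74.7 kb from a Nutlin-3a midpoint. Of 11 genes whose products bind Schlafens or act with them, 0 had a Nutlin-3a midpoint within 20 kb, the nearest being RPA1, a subunit of the single-strand DNA binding complex, at 113 kb. In the DMSO list 1 of the 11 did: PDE3A, the partner of SLFN12, had an interval inside the gene at chromosome 12, 20677937 to 20678168, whose fold enrichment was 2.27 at a −log10 q of 1.48, rank 209 of 213. SLFNL1, the Schlafen-like gene outside the cluster, was 854 kb from the nearest Nutlin-3a midpoint.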

How the data were processed

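RFX7 ChIP-seq samples and inputs of U2OS cells were grouped by their titles. The data analysed were 2 interval lists, named as merged and mapped to the RFX7 groups. The submitters' processing notes name build hg38, MACS2 2.2.7.1 and bedtools 2.29.2 without roles. The aligner, caller settings, filters and way of merging are not given in the sources used here. The fold enrichment, the −log10 q and the score (the whole part of 10 times −log10 q, unused) were deposited by the authors. Depth is unknown, so values were ranked only within their list.

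With Python 3.11.15 and pandas 2.3.3, interval midpoints were set against RefSeq GRCh38.p14 genes, which have no exons in the table used, and RefSeq promoters were searched for X-box arms. The facing-pair search was added after the data were seen. Distance and motif code was tested on simulated data. Members and lists were chosen with earlier results of these data known. The genes named were the members, their flanking genes, those nearest in rank and list genes within 20 kb, except a few items not reported here. No test was run, since the lists hold no replicate values. Alternatives changed distance limits, −log10 q minimum, assignment, ranking and overlap rules.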

Additional observations from a re-analysis of the deposited data

How the results depend on the processing

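For 8 results, 33 values were recomputed under the alternatives, and 20 were counted as unchanged. Counts passed when within 1.5 times the reported one, and shares and ranks when inside its 95% Wilson interval. The 20 include the 3 members at a 50 kb limit against the reported 2, which adds SLFN12L. The SLFN12 interval left the Nutlin-3a count (0 intervals and 0 member genes) with a −log10 q of at least 10, and the intervals were also 0 when the minimum was the median of the list, both by construction since its own −log10 q is 7.74. With a 1 kb limit, and with assignment to the nearest gene end only, 1 member gene had a Nutlin-3a interval in place of 2. The share of protein-coding genes with a Nutlin-3a midpoint was 0.938% at 1 kb, 1.11% at 5 kb, 2.94% at 50 kb and 1.11% over all annotated genes. The DMSO shares were 0.27%, 0.294%, 0.559% and 0.337%. The DMSO counts for the cluster, and the count of sites in both lists, were 0 under each alternative run. These zeros make up much of the 20 unchanged values and were fixed in advance. The nearest DMSO interval was at least 17.1 Mb from every member, so no distance limit, cutoff or overlap rule used could have changed them. No paired analysis was possible because the 2 lists carry no replicate numbers, and alternatives that leave out a replicate were not run for the same reason. The unknown depth limits what the missing DMSO interval can say.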

Other observations

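A pair of intervals near the genes of the wider Schlafen network were near an extreme of their lists. The interval 19.6 kb from IRF9 was 50 bp wide, the lowest width in the Nutlin-3a list, and it ranked 112 by fold enrichment but 252 by −log10 q. Other narrow Nutlin-3a intervals also had a high fold enrichment for their −log10 q. Those of 61, 70 and 76 bp had folds of 3.88, 4.37 and 6.86 at −log10 q of 1.53, 2.02 and 8.41. The mismatch was therefore not particular to the IRF9 interval. The DMSO interval inside PDE3A was 10531 bp from the nearer end of that gene, and it ranked 209 of 213 by both fold enrichment and −log10 q.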
